A study of Arabidopsis thaliana with 3 samples.

Results

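The genes described here encode lipid transfer proteins, GDSL-type lipases, enzymes of wax and cutin and enzymes of fatty acid metabolism in Arabidopsis thaliana seedlings. They are the genes of the authors' deposited tables whose description contains lipid transfer, LTP, GDSL, ketoacyl-CoA, fatty acid, cutin or wax, with AZI1, EARLI1 and ADS1 added by locus and cytochrome P450 genes left out. The rule itself used the wording of the descriptions and the added loci, and no measured value. It was set with earlier results of these data known and could reach only genes that the authors listed. It gave 56 genes of the 2666 listed in either table: 24 lipid transfer genes, 12 GDSL genes, 4 wax, cutin and ketoacyl-CoA genes, and 16 fatty acid genes. Of these, 27 were among the 1239 genes listed for pwo1 and 35 among the 1935 listed for crwn1 crwn2.

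RNA-seq was done on whole seedlings of the pwo1 mutant, of the crwn1 crwn2 double mutant and of the wild type Col-0, each harvested at 14 days after 2 days of stratification and raised on upright MS plates under long days. PWO1 is a PWWP-domain protein associated with Polycomb repression, and CRWN1 and CRWN2 are lamina-like proteins of the plant nucleus. The sources used here do not name the mutants' alleles, and no treatment was shared by the groups beyond these growth conditions. The design text states 3 biological replicates per genotype, while each genotype is recorded as 1 sample and the tables carry only the authors' own comparisons of each mutant with Col-0.

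Plant non-specific lipid transfer proteins are small secreted proteins that bind lipids in a pocket held together by cysteine bridges, and several of them act in the cuticle or in defence signalling. GDSL-type lipases hydrolyse or transfer acyl groups, and some of them build or break down cutin. Ketoacyl-CoA synthases elongate fatty acids toward the very long chains of wax, desaturases set the number of double bonds in membrane lipids, and peroxisomal beta-oxidation shortens acyl chains.

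Part of the lipid transfer genes sit in 1 block on chromosome 4 that runs from AZI1 to AIR1 and holds 13 protein-coding genes. AZI1 (AT4G12470) is known for its role in defence priming by azelaic acid, and EARLI1 (AT4G12480) is its close relative, known as a cold-responsive gene. The stretches of 250 bases before the annotated gene start are shown for 4 of the listed genes of this block. They were read from the RefSeq assembly TAIR10.1, on the minus strand, at chr4:7401952-7402201 for AZI1, chr4:7406995-7407244 for EARLI1, chr4:7417874-7418123 for AT4G12510 and chr4:7421829-7422078 for AT4G12520. No other annotated gene lies inside these windows. AZI1 and EARLI1 were listed for crwn1 crwn2, and EARLI1, AT4G12510 and AT4G12520 for pwo1. Windows of other listed genes of the block, such as AT4G12490 and AT4G12500 in crwn1 crwn2, are not shown. Capitals mark the longest exact run shared within each pair, AZI1 with EARLI1 and AT4G12510 with AT4G12520, which was looked for after the windows were seen.
AZI1: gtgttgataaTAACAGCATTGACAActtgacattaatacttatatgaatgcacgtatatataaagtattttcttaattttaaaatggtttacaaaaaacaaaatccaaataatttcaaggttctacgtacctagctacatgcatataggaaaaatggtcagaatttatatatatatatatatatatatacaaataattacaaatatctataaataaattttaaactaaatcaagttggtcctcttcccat
EARLI1: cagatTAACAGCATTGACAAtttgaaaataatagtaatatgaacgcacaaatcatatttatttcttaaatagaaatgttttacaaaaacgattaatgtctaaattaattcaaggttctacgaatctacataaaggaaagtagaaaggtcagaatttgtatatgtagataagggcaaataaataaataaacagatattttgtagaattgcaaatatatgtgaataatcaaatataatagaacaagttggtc
AT4G12510: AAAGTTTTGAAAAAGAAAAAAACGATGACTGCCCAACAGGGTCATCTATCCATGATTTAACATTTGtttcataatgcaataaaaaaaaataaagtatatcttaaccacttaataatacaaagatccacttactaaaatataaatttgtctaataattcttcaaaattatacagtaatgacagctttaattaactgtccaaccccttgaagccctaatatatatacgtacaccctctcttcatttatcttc
AT4G12520: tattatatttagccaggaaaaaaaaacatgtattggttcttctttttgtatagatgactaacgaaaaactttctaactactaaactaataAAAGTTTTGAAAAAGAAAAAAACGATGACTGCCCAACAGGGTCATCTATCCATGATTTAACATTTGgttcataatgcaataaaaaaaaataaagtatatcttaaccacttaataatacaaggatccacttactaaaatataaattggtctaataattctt

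The run shared by AZI1 and EARLI1 had 15 bases and was present in 2 of 27443 windows of the same length, which are these. The run of 66 bases shared by AT4G12510 and AT4G12520 also occurred in 2 windows, again these. Over the whole window AZI1 and EARLI1 were 63.1% identical. For AT4G12510 and AT4G12520 the figure was 46.2%, but their windows are offset, which lowers it. The shared run opens the AT4G12510 window and starts well inside that of AT4G12520. Past the capitals the letters stay nearly the same to the end of the AT4G12520 window. The 46.2% thus does not show that this pair is less alike. These matches describe the sequence and say nothing of a factor that reads it.

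Judged by its values, each of the authors' deposited tables lists genes that passed in both edgeR and Cuffdiff, so listing is the call counted here. Listing covered 1236 of the 38095 genes in the reference annotation for pwo1 (3.24%) and 1933 for crwn1 crwn2 (5.07%). This base takes in genes that are not protein-coding, while 27444 protein-coding genes have a sequence. The share over protein-coding genes alone was not computed. The digit after AT in each locus name is the chromosome. All fold changes are log2 values of the mutant over Col-0 from edgeR unless Cuffdiff is named, so positive values mean higher RNA in the mutant. An unlisted gene may still differ, because unlisted genes were not analysed here. Values per library, depth and the spread between replicates were not analysed here, and depth is unknown. In whole seedlings, fewer cells of a type and less RNA per cell cannot be told apart.

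Both mutated genes of the double mutant were lower in it, with log2 fold changes of -3.03 for CRWN1 and -2.42 for CRWN2 (-1.57 by Cuffdiff) in the authors' deposited table, which checks its sign. PWO1 was not listed for pwo1, so the pwo1 values have no such check. Their column header reads Col vs pwo1, which alone does not settle the sign. It has the same form as the crwn1 crwn2 header, and the direction of every pwo1 value rests on that likeness. Of 7 leaf markers, 1 was higher and 4 were lower in pwo1 in the authors' deposited table, from -1.36 for LHCB2.1 to 0.76 for RBCS2B, and GLK1 was the leaf marker listed for crwn1 crwn2 (-0.73). Among 9 root markers the phosphate transporter gene PHT1;1 was listed for pwo1 (0.83 in the authors' deposited table) and 0 for crwn1 crwn2. Of 3 epidermis markers, PDF1 was listed for crwn1 crwn2 (-0.49 in the authors' deposited table) and 0 for pwo1. A further 2 of the 5 epidermis symbols matched no single gene. For either mutant, 0 of 8 seed markers were listed. The part of tissue composition in the values below was not tested.

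**Figure D1:**
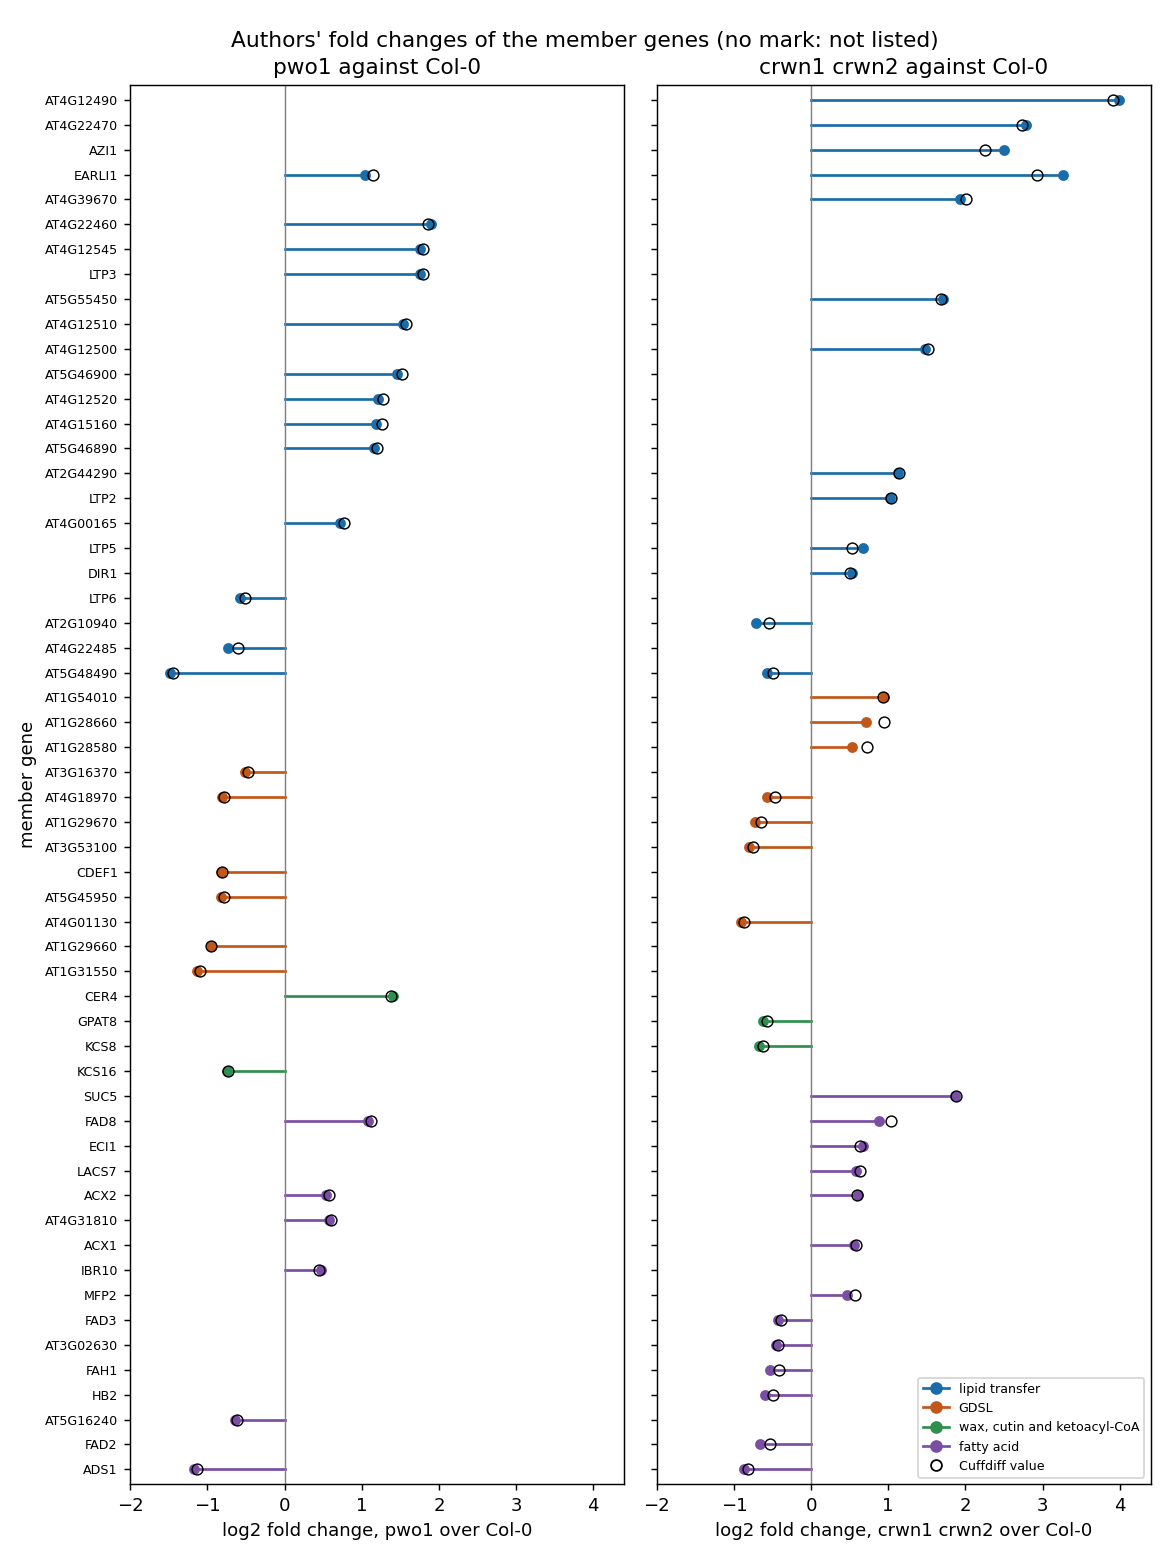
Log2 fold change of each of the 56 genes in pwo1 over Col-0 (left) and crwn1 crwn2 over Col-0 (right), filled points from edgeR and open circles from Cuffdiff in the authors' deposited tables, coloured by role. A gene with no mark was not listed for that mutant. Lipid transfer genes span -1.49 to 1.90 in pwo1 and -0.71 to 3.99 in crwn1 crwn2.

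Among the genes listed for pwo1, 15 of the 27 were higher and 12 were lower than in Col-0 in the authors' deposited table, beside 42.5% higher and 57.5% lower over all genes listed. Their median was 0.54, against -0.53 over all 1239. No gene listed for either mutant lies between -0.25 and 0.25. A median here and below thus mostly tells which side of 0 holds more genes, and is no measure of a shift. Without the keyword fatty acid the median was 0.10, inside that empty range, with 11 genes higher and 11 lower. At least 2-fold differences were found for 11 higher genes and 3 lower ones, where 14.8% of all listed genes were 2-fold higher and 19.9% were 2-fold lower. Of the 27, 18 in the authors' deposited table had p under 0.001 in both tools (65.5% of all listed genes). An upper bound on the Benjamini-Hochberg adjusted p of edgeR, taken over all 38095 reference genes, was under 0.05 for 20 of the 27 (76.3% of all listed genes). The 7 that missed it were LTP3, LTP6, AT4G12520, AT5G46890, AT4G22485, the GDSL gene AT3G16370 and IBR10.

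For crwn1 crwn2, 21 of the 35 genes were higher and 14 lower in the authors' deposited table, beside 56.5% higher and 43.5% lower over all genes listed. Their median was 0.55 and that of all 1935 was 0.53. At least 2-fold differences were found for 10 higher genes and 0 lower ones, where 28.5% of all listed genes were 2-fold higher and 11.9% were 2-fold lower. Of the 35, 25 in the authors' deposited table had p under 0.001 in both tools (65.7% of all listed genes). The bound on the adjusted p of edgeR was under 0.05 for 30 of the 35 (82.8% of all listed genes), and LTP5, DIR1, FAD3, MFP2 and ECI1 missed it. The shares of higher genes over all members, 55.6% in pwo1 and 60% in crwn1 crwn2, join roles that differed in direction, so the roles are described one by one.

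**Figure D2:**
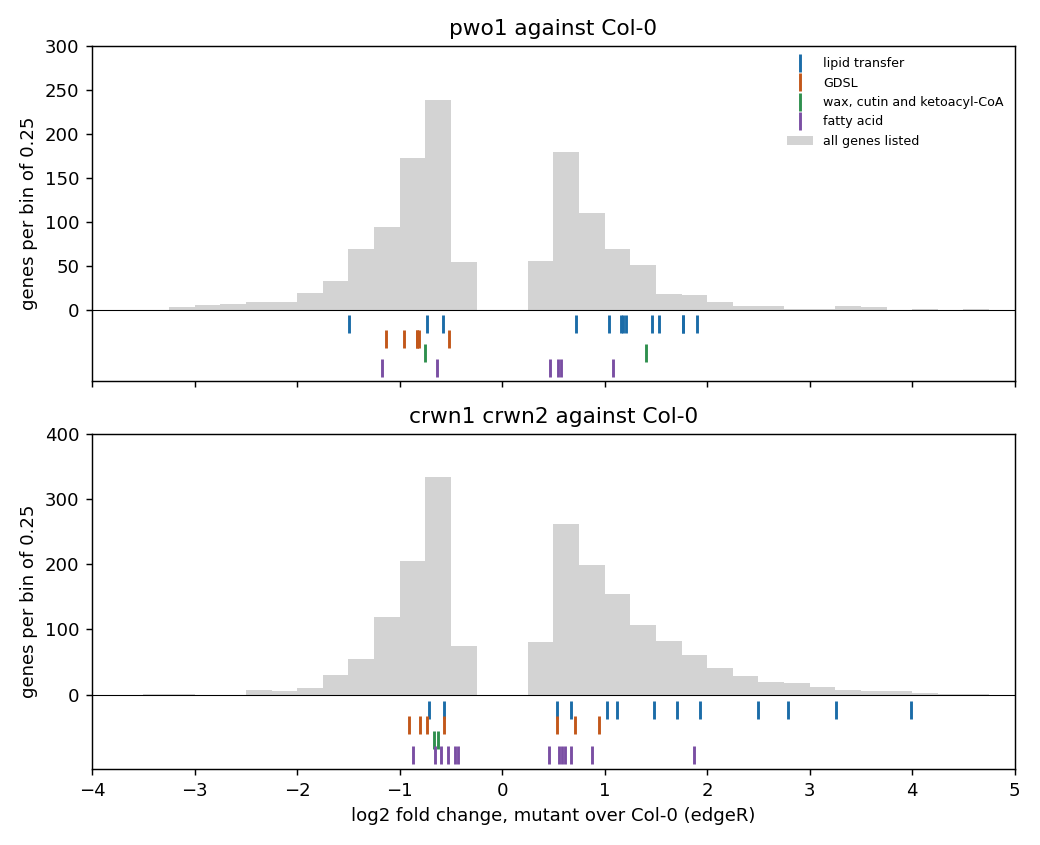
Grey bars count all listed genes per 0.25 of log2 fold change (edgeR, mutant over Col-0), and ticks below the axis mark the 56 genes by role. In pwo1 the GDSL ticks all lie below 0, and in crwn1 crwn2 the lipid transfer ticks reach 3.99.

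Lipid transfer genes held the largest differences of the 4 roles in both mutants. In pwo1, 10 of the 13 listed were higher and 3 lower in the authors' deposited table, with a median of 1.18. In crwn1 crwn2, 11 of the 13 listed were higher and 2 lower, with a median of 1.48 in the authors' deposited table. These shares, 76.9% and 84.6% higher, stand beside 42.5% of all genes listed for pwo1 and 56.5% for crwn1 crwn2. Of 16 genes in a list of classical lipid transfer proteins and relatives, 3 were higher and 1 lower in pwo1 (25% listed, against 3.24% of all reference genes) and 5 were higher and 0 lower in crwn1 crwn2 (31.2% listed, against 5.07%). Of the 19 symbols written for it, 2 matched no single gene, and its counts leave out AT4G12490 and AT4G12500. This list and the others below were put together with earlier results of these data known.

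Within the chromosome 4 block, the 4 genes at the AZI1 end were higher in crwn1 crwn2. The authors' deposited table gave a log2 fold change of 3.99 for AT4G12490 (edgeR p = 1.87e-13), the highest of the 56 genes in either mutant. EARLI1 followed at 3.26 (edgeR p = 1.17e-13) and AZI1 at 2.50 (edgeR p = 7.68e-10) in the authors' deposited table. AT4G12500 stood at 1.48 in the authors' deposited table (edgeR p = 2.22e-06). These 4 genes encode proteins with a proline-rich stretch before the lipid transfer domain.

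The pwo1 table listed EARLI1 and the other end of the block. EARLI1 was at 1.04 in the authors' deposited table (edgeR p = 4.65e-05). Further along, AT4G12510 was at 1.53 (edgeR p = 0.000112), AT4G12520 at 1.21 (edgeR p = 0.00171) and AT4G12545 at 1.76 (edgeR p = 3.36e-08) in the authors' deposited table. Next to AT4G12545, the auxin-induced root gene AIR1, which the description keywords do not match, was at 1.22 in the authors' deposited table (edgeR p = 0.000637). EARLI1 was the gene of the block listed for both mutants, and the difference between the mutants was not tested because both comparisons use the same Col-0 libraries. AT4G12485, AT4G12495, AT4G12530, AT4G12540 and AT4G12543, which lie between these genes, were listed for neither mutant.

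**Figure D3:**
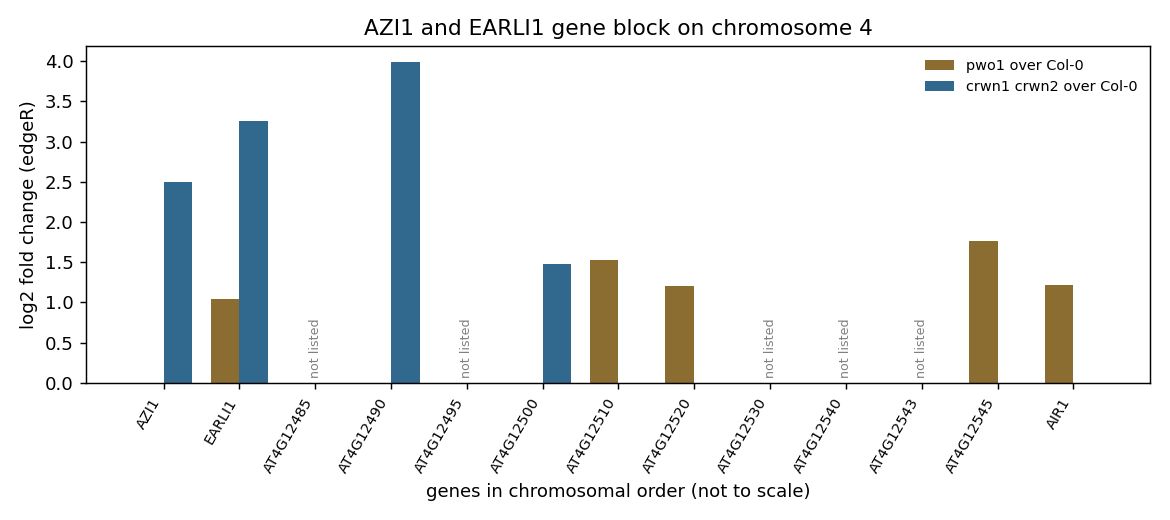
Bars give the log2 fold change by edgeR, pwo1 over Col-0 and crwn1 crwn2 over Col-0, for the 13 protein-coding genes of the chromosome 4 block in their order, not to scale; a missing bar means not listed. The crwn1 crwn2 bars stand at AZI1 to AT4G12500 and the pwo1 bars at EARLI1 and from AT4G12510 to AIR1.

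Close copies in this block limit how far single genes can be told apart. The coding sequences of AT4G12510 and AT4G12520 were 99.5% identical, with an exact run of 371 bases in common. Those of AT4G12545 and AIR1 were 93.2% identical and those of AT4G12490 and AT4G12500 90.3%, with shared runs of 87 bases each. EARLI1 and AT4G12490 were 81.4% identical, and AZI1 and EARLI1 84.1% with a run of 32 bases. The sources used here do not say how reads common to such copies were counted, or whether counting used the strand. EARLI1, AT4G12490 and AT4G12545 also overlap another annotated gene, as do 18 of the 56 genes in all, so their values are uncertain.

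Outside the block, pwo1 seedlings had higher RNA of several further lipid transfer genes. AT4G22460, which the files describe as expressed in root, was the highest of the keyword-matched ones at 1.90 in the authors' deposited table (edgeR p = 8.12e-06), and it overlaps another annotated gene. The neighbours AT5G46900 and AT5G46890 on chromosome 5 were at 1.46 (edgeR p = 0.000551) and 1.16 (edgeR p = 0.00134) in the authors' deposited table. They are 97.4% identical in coding sequence and may share reads. The authors' deposited table also gave 1.18 for AT4G15160 (edgeR p = 0.000268), whose product is rich in proline, and 0.72 for AT4G00165 (edgeR p = 0.000475), which overlaps another gene.

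LTP3 (AT5G59320), a classical lipid transfer protein gene, was at 1.76 in pwo1 in the authors' deposited table (edgeR p = 0.00375, bound on the adjusted p 0.116). Its relative LTP4 (AT5G59310), whose row carries no description text here and so could not be matched, was at 3.38 in the authors' deposited table (edgeR p = 0.000758, bound 0.0346). The coding sequences of LTP4 and LTP3 were 84.5% identical with a shared run of 44 bases. On the lower side, LTP6 (AT3G08770) was at -0.58 (edgeR p = 0.00293) and the long proline-rich gene AT4G22485 at -0.73 (edgeR p = 0.00162) in the authors' deposited table, and both missed the bound.

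For crwn1 crwn2, too, lipid transfer genes outside the block were listed, AT5G48490 for both mutants. Over all roles, 6 of the 56 genes were listed for both mutants. Over all genes, 1239 were listed for pwo1, 1935 for crwn1 crwn2 and 2666 in either table. AT4G22470, a proline-rich relative that overlaps another gene, was at 2.79 in the authors' deposited table (edgeR p = 2.06e-08). AT4G39670, a member of the glycolipid transfer protein family and so of another fold than the small secreted proteins, was at 1.93 (edgeR p = 1.33e-08) in the authors' deposited table. AT5G55450, which overlaps another gene, was at 1.71 in the authors' deposited table (edgeR p = 3.32e-17). Smaller values in the authors' deposited table were 1.12 for AT2G44290 (edgeR p = 2.48e-09), 1.02 for the classical gene LTP2, AT2G38530 (edgeR p = 1.57e-06) and 0.67 for LTP5, AT3G51600 (edgeR p = 0.0056), which missed the bound. AT2G10940 was lower, at -0.71 in the authors' deposited table (edgeR p = 0.000122).

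DIR1 (AT5G48485) encodes a lipid transfer protein needed for long-distance signalling in systemic acquired resistance, and AT5G48490 is its neighbour on chromosome 5. The authors' deposited table for pwo1 gave -1.49 for AT5G48490 (edgeR p = 6.51e-19), the lowest of the 56 genes in either mutant, and did not list DIR1. For crwn1 crwn2 it gave -0.57 for AT5G48490 (edgeR p = 0.00115) and 0.53 for DIR1 (edgeR p = 0.00466, bound 0.0953) in the authors' deposited table. The neighbours thus stood on opposite sides of 0 in crwn1 crwn2. Their coding sequences were 76.3% identical with a longest shared run of 20 bases, and DIR1 overlaps another annotated gene.

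The encoded proteins were examined through translated RefSeq coding sequences. A pattern of 8 cysteines in the order typical of lipid transfer proteins was found in 22 of the 24 lipid transfer proteins (91.7%), against 133 of 27444 proteins (0.485%). Most of these genes were chosen by descriptions that name this family, so the high share is no independent result. The proteins without it were AT4G22460 and AT4G39670. Proteins of this role had a median length of 129 amino acids (101 to 656), and 19 of the 24 genes had a single coding exon. Their median proline content was 9.81%, against 4.55% over all proteins.

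Proline content differed between the ends of the chromosome 4 block. The 4 proteins from the AZI1 end had 14.9% (AZI1), 16.1% (EARLI1), 18.1% (AT4G12490) and 15.8% (AT4G12500), while AT4G12510 and AT4G12520 had 7.75% and AT4G12545 had 6.48%. The most proline-rich were AT4G22485 (41.3% of 656 residues), AT4G15160 (34.9% of 275), AT4G22470 (28.3% of 375) and AT2G10940 (25.1% of 291).

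**Figure D4:**
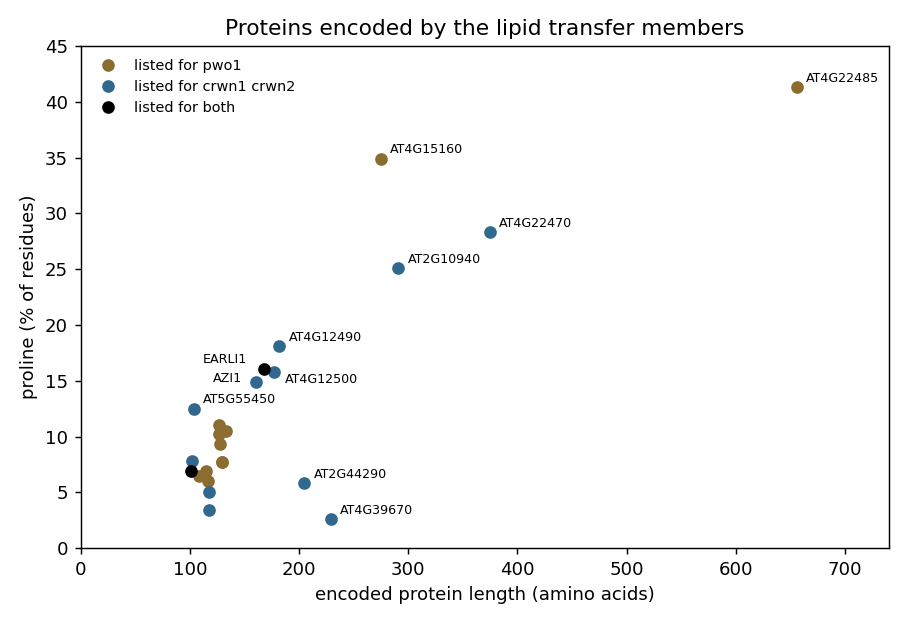
Each point is 1 of the 24 lipid transfer proteins, by encoded length in amino acids and proline as a percent of residues; colour gives the mutant for which the authors' deposited tables list the gene. The median length is 129 residues, and AT4G22485 lies apart at 656 residues and 41.3% proline.

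GDSL genes listed for pwo1 were all lower: 0 of 6 higher and 6 lower in the authors' deposited table, with a median of -0.83. Over all genes listed for pwo1, 57.5% were lower. Among the 6, AT3G16370, AT4G18970 and CDEF1 overlap another annotated gene. AT1G31550 was the lowest of the 6 at -1.13 in the authors' deposited table (edgeR p = 2e-05). AT1G29660 was at -0.96 (edgeR p = 7.18e-06), AT5G45950 at -0.83 (edgeR p = 2.07e-06) and AT4G18970 at -0.81 (edgeR p = 2.27e-07) in the authors' deposited table. CDEF1 (AT4G30140), which encodes a cutinase, stood at -0.83 in the authors' deposited table (edgeR p = 0.000204), and AT3G16370 at -0.52 (edgeR p = 0.00148) missed the bound. GLIP2 (AT1G53940), a defence-related GDSL lipase gene that the keywords do not match, was in contrast at 1.87 in pwo1 (edgeR p = 4.5e-06) and at 1.56 in crwn1 crwn2 (edgeR p = 0.000193) in the authors' deposited tables. The direction of the 6 did not extend to GLIP2.

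GDSL genes were divided in crwn1 crwn2, where 3 of the 7 listed were higher and 4 lower in the authors' deposited table, with a median of -0.57. Over all genes listed for crwn1 crwn2, 56.5% were higher. The higher ones were AT1G54010 at 0.94 (edgeR p = 3.14e-05), AT1G28660 at 0.71 (edgeR p = 0.000154) and AT1G28580 at 0.53 (edgeR p = 0.000947) in the authors' deposited table. Lower in the authors' deposited table were AT4G01130 at -0.91 (edgeR p = 1.22e-05), AT3G53100 at -0.80 (edgeR p = 3.8e-05), AT1G29670 at -0.73 (edgeR p = 4.72e-06) and AT4G18970 at -0.57 (edgeR p = 0.00169). AT1G29670 lies next to AT1G29660, the gene lower in pwo1. AT1G29670, AT3G53100 and AT4G18970 overlap another annotated gene. The letters GDS were present in 12 of 12 GDSL proteins and in 11.5% of all proteins, and the GDSL proteins had a median of 382.5 amino acids. The keyword that chose these genes names the same letters, so this share is no independent result.

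Few genes of wax and cutin were listed. CER4 (AT4G33790), the acyl-CoA reductase that forms the primary alcohols of wax, was at 1.40 in pwo1 in the authors' deposited table (edgeR p = 0.000923, bound on the adjusted p 0.0398). KCS16 (AT4G34250), a ketoacyl-CoA synthase gene, was at -0.75 in the authors' deposited table (edgeR p = 0.000129). In crwn1 crwn2 the ketoacyl-CoA synthase gene KCS8 (AT2G15090) was at -0.67 (edgeR p = 0.000239) and GPAT8 (AT4G00400), an acyltransferase of cutin synthesis, at -0.63 (edgeR p = 4.51e-05) in the authors' deposited table. CER1 (AT1G02205), a gene of alkane formation in wax whose row has no description text here, was at -0.70 in the authors' deposited table (edgeR p = 0.00209, bound 0.0498).

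Read against the wider pathways, these were single genes. Of 26 elongase genes, 0 were higher and 1 was lower in each mutant, which is 3.85% listed. Of 19 genes of wax synthesis and export, 1 was higher in pwo1 and 1 lower in crwn1 crwn2 (5.26% listed in each). Of 17 genes of cutin and suberin, 0 were listed for pwo1 and 1, lower, for crwn1 crwn2 (5.88%). Shares near 3.24% for pwo1 and 5.07% for crwn1 crwn2 are those of the whole reference annotation.

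Desaturase genes moved in both directions. FAD8 (AT5G05580), the plastid omega-3 desaturase, was at 1.08 in pwo1 (edgeR p = 4.09e-07) and at 0.88 in crwn1 crwn2 (edgeR p = 1.31e-05) in the authors' deposited tables, and it overlaps another annotated gene. ADS1 (AT1G06080), an acyl desaturase of the delta-9 type, was at -1.17 in pwo1 (edgeR p = 6.43e-07) and at -0.87 in crwn1 crwn2 (edgeR p = 0.000572) in the authors' deposited tables. As the Col-0 libraries are common to both comparisons, these pairs of values are not independent.

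The enzymes of the endoplasmic reticulum were lower in crwn1 crwn2 in the authors' deposited table, FAD2 (AT3G12120) at -0.66 (edgeR p = 0.000231) and the omega-3 desaturase FAD3 (AT2G29980) at -0.43 (edgeR p = 0.00537), which missed the bound. Stearoyl-ACP desaturase family genes, which act on the plastid's saturated acyl chains, were AT5G16240 at -0.64 in pwo1 (edgeR p = 0.000373) and AT3G02630 at -0.46 in crwn1 crwn2 (edgeR p = 0.00199) in the authors' deposited tables. FAH1 (AT2G34770), a fatty acid hydroxylase gene that overlaps another gene, was at -0.53 in crwn1 crwn2 in the authors' deposited table (edgeR p = 0.000718). FAD4 (AT4G27030, FADA in RefSeq), a plastid desaturase gene outside the keywords, was at 0.95 in crwn1 crwn2 in the authors' deposited table (edgeR p = 1.64e-07). FAD4 overlaps another annotated gene. Of 21 genes of fatty acid synthesis and desaturation, 1 was higher and 1 lower in pwo1 (9.52% listed, against 3.24% of all reference genes), and 2 were higher and 3 lower in crwn1 crwn2 (23.8% listed, against 5.07%). This list was written with 30 symbols, of which 5 matched no single gene. Its counts leave out AT5G16240 and AT3G02630, the lower stearoyl-ACP desaturase family genes above.

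Of 11 beta-oxidation genes in a list, 4 were higher, 0 were lower and 7 were not listed in crwn1 crwn2 (36.4% listed, against 5.07% of all reference genes). They were the acyl-CoA oxidase genes ACX2 (AT5G65110) at 0.61 (edgeR p = 0.000104) and ACX1 (AT4G16760) at 0.55 (edgeR p = 0.000948), the peroxisomal acyl-CoA synthetase gene LACS7 (AT5G27600) at 0.58 (edgeR p = 0.000206) and the multifunctional protein gene MFP2 (AT3G06860) at 0.46 (edgeR p = 0.00221, bound 0.0519) in the authors' deposited table. ECI1 (AT1G65520), an enoyl-CoA isomerase gene outside that list, was at 0.67 in the authors' deposited table (edgeR p = 0.00384, bound 0.0815), and it overlaps another gene. In pwo1, 1 of the 11 was listed (9.09%, against 3.24% of all reference genes), ACX2 at 0.54 in the authors' deposited table (edgeR p = 0.000304). PKT4 (AT1G04710), a ketoacyl-CoA thiolase gene outside the list and the keywords, was lower in pwo1, at -0.64 in the authors' deposited table (edgeR p = 0.000303). Higher in pwo1 were AT4G31810, a gene of the 3-hydroxyisobutyryl-CoA hydrolase type that overlaps another gene, at 0.57 (edgeR p = 0.000413), and IBR10 (AT4G14430), described in the files as an enoyl-CoA isomerase gene, at 0.47 (edgeR p = 0.003) in the authors' deposited table.

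SUC5 and HB2 entered through their description text and are no enzymes of lipid metabolism. SUC5 (AT1G71890), a sucrose transporter gene, was at 1.87 in crwn1 crwn2 in the authors' deposited table (edgeR p = 2.83e-05). HB2 (AT3G10520), a haemoglobin gene, was at -0.60 there in the authors' deposited table (edgeR p = 0.000194). Over the fatty acid role, 4 genes were higher and 2 lower in pwo1 with a median of 0.51, and 7 were higher and 6 lower in crwn1 crwn2 with a median of 0.46 in the authors' deposited tables. In pwo1 66.7% were thus higher, beside 42.5% of all genes listed. In crwn1 crwn2 53.8% were higher, near the 56.5% of all genes listed. At least 2-fold differences in this role were those of FAD8 and ADS1 in pwo1 and SUC5 in crwn1 crwn2.

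Short words bound by stress-related factors were counted in the 250 bases before each gene, on both strands. No word is part of another, though words of different kinds can share bases where they meet. The words were ACGTGTC or ACGTGGC for the abscisic acid response element, TTGACC or TTGACT for the W-box, and TGGTTNG or CNAACCA for a MYB word. The W-box letters were in 13 of the 56 windows (23.2%), the abscisic acid element in 3 (5.36%) and the MYB word in 4 (7.14%), against 28.4%, 6.39% and 13.7% of all 27443 windows. Among the 21 genes higher in crwn1 crwn2, 8 windows held the W-box letters (38.1%), and among the 14 lower ones 0 did, while the 11 lipid transfer genes among the higher ones had 2 (18.2%). In pwo1, 4 of the 15 higher genes and 3 of the 12 lower genes held them. The MYB word was in 0 of 21 windows of genes higher and 2 of 14 of genes lower in crwn1 crwn2, and in 0 of 15 and 3 of 12 in pwo1. The abscisic acid element was in 1 of 21 and 0 of 14 in crwn1 crwn2, and in 2 of 15 and 0 of 12 in pwo1. Of the 4 printed windows, 0 held any of the words. A match is a description of the letters and not a binding site.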

How the data were processed

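RNA-seq of whole seedlings of pwo1, crwn1 crwn2 and Col-0 was deposited as 2 tables of the authors' own comparisons. Per the file headers, each row holds log2 values of fold change with p-values, once by edgeR and once by Cuffdiff. The submitters' processing notes name edgeR 3.3, Cuffdiff 2.2.1, HTSeq 0.6.1, TopHat2 2.0.12, Cufflinks 2, Trimmomatic 0.35, FastQC 0.10 and the build TAIR10, without roles or order. The sources used here do not give the normalization, the filters or the threshold for listing. The edgeR p-values of the authors' deposited tables end at 0.00386 for pwo1 and 0.00585 for crwn1 crwn2. No adjusted p-values are given, and Cuffdiff p-values have a floor of 5e-05. Depth per sample is unknown, so no interval was computed. The authors' p-values rest on replicates whose spread is not shown in the tables.

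Per-gene tests are the authors' own, and no test was added. An upper bound on the adjusted p came from adjusting the authors' edgeR p-values (Benjamini-Hochberg) over 38095 genes of the RefSeq annotation of TAIR10.1, with every unlisted gene counted. The tables hold no coordinates, so positions are those of TAIR10.1. Of the listed identifiers, 1236 for pwo1 and 1933 for crwn1 crwn2 were in that annotation, among them every member. Python 3.11.15, pandas 2.3.3, numpy 2.4.6, Biopython 1.88 and matplotlib 3.10.9 were used, and the scripts were tested on simulated data. The members and lists were chosen with earlier results of these data known. Named genes are those listed for both mutants, up to 5 per role and table by the authors' edgeR p and by fold change, AZI1, EARLI1, ADS1 and the listed members of the pathway lists; others complete a family. In the pathway and marker lists, 8 ambiguous symbols were dropped or mapped by locus. Symbols that matched no single gene were not counted. These were 2 of 19 for lipid transfer, 2 of 31 for elongases, 2 of 23 for wax and 4 of 22 for cutin and suberin. They were also 5 of 30 for fatty acid synthesis and desaturation, 1 of 13 for beta-oxidation and 2 of 5 for epidermis. Description text was missing for 60 rows of the pwo1 table and 100 of the crwn1 crwn2 table, which the keywords could not reach.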

Additional observations from a re-analysis of the deposited data

How the results depend on the processing

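The alternatives were Cuffdiff values in place of edgeR, at least 2-fold differences, p under 0.001 in both tools, the bound on the adjusted p, whole-word keywords, dropping the keyword fatty acid, leaving out genes that overlap another annotated gene, and, chosen after seeing the data, keywords matched in the symbols too. No direction turned. Without the keyword fatty acid the median in pwo1 was 0.10 in place of 0.54 and the genes lower in crwn1 crwn2 were 9 in place of 14. At 2-fold or more, the genes higher in crwn1 crwn2 were 10 in place of 21, those lower in it 0 in place of 14, and those lower in pwo1 3 in place of 12. With p under 0.001 in both tools, 8 were lower in crwn1 crwn2. Without overlapping genes, 9 were higher in pwo1 in place of 15. The moved counts come from settings that count fewer genes. At 2-fold or more the balance changed too, to 10 higher and 0 lower in crwn1 crwn2 and 11 higher and 3 lower in pwo1. The moved median in pwo1 goes with 11 genes higher and 11 lower without the keyword fatty acid. The other medians and counts stayed within 1.5 times, and the genes named by the rule (19 in pwo1, 30 in crwn1 crwn2) kept their sign with Cuffdiff, the largest gaps among them being 0.10 in pwo1 and 0.33 in crwn1 crwn2, both for EARLI1. Outside the rule, AT4G22485 in pwo1 was at -0.73 by edgeR and -0.61 by Cuffdiff in the authors' deposited table. No paired analysis was possible because each genotype is 1 sample and the tables carry no replicate columns, and leaving out a replicate could not be run for the same reason. Depth, replicate spread and the number of genes tested are unknown here, so absence from a table limits what can be said of the unlisted family members.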
